A study of Mus musculus with 4 samples.

Results

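The neuronal cytoskeleton and growth cone genes described here are Tubb3, Dcx, Stmn2, Stmn3, Gap43, Ina, Nefl, Nefm, Elavl3 and Elavl4. They were chosen by name, and all 10 were among the 18081 genes listed in all 4 libraries, out of 20719 genes listed in any. Of the 10, 8 encode proteins of the neuronal cytoskeleton or growth cone, and the remaining 2, Elavl3 and Elavl4, encode RNA-binding proteins. Their levels were read in neural progenitors, neuroblasts and neurons, then across 6 kinds of neuron, and then between the 2 genotypes.

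The study profiled single cells of the embryonic mouse brain at E10.5 by droplet RNA sequencing. There were 2 libraries labelled Apcdd1+/-, from embryos with 1 altered copy of Apcdd1, which encodes a membrane-bound inhibitor of Wnt signalling, and 2 labelled WT. The tissue was the embryo head, and live cells were sorted after a DAPI stain, so tissues of the head outside the brain were present too. Strain, sex, the number of embryos or litters behind a library and the altered part of Apcdd1 are given in none of the sources used here, so the p-values measure the spread between libraries, which may be technical.

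A neuron that has left the cell cycle builds an axon from microtubules and neurofilaments and extends it behind a growth cone. Tubb3 is the beta-tubulin used mainly by neurons, and Dcx binds and stabilises microtubules in migrating neurons. Stmn2 and Stmn3 are stathmins, which bind tubulin dimers, and Gap43 is a phosphoprotein on the inner face of the growth cone membrane. Ina, Nefl and Nefm are subunits of neuronal intermediate filaments, and Elavl3 and Elavl4 bind AU-rich stretches of neuronal mRNAs and stabilise them.

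In the mm10 build with GENCODE vM21 genes, Elavl4 spans chr4:110203722-110351909 and Elavl3 spans chr9:22015005-22052023, both on the minus strand. Nefl, at chr14:68083863-68089095 on the plus strand, lies inside the span of Nefm, at chr14:68082590-68124846 on the minus strand. Tubb3 lies at chr8:123411424-123422015 on the plus strand, Dcx at chrX:143855842-143933311 on the minus strand and Gap43 at chr16:42248442-42340651 on the minus strand. Stmn2 lies at chr3:8509360-8561606 on the plus strand, Stmn3 at chr2:181306459-181314500 on the minus strand and Ina at chr19:47014698-47025327 on the plus strand. Tubb3 and Elavl3 each overlap an annotated gene on the same strand, Gm20388 and Gm49318, while Ina overlaps Nt5c2 on the other strand. Whether counting used the strand is not stated, so reads of Nefl and Nefm, and of these other overlapping pairs, could have been shared or lost, and their levels are uncertain to that extent.

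The 4 promoters below are shown because they hold an E-box, the short motif bound by basic helix-loop-helix proteins such as the neurogenins that mark neuroblasts. Each window is the 250 bases before an annotated start, from RefSeq on GRCm38.p6, written 5′ to 3′ on the gene's own strand, with the E-box motifs searched in capitals. These were CAGCTG, which reads the same on both strands, and CAGATG, read on both strands. Other E-box sequences were not searched and are not marked. The windows are Elavl4 at chr4:110287512-110287761 on the minus strand, Elavl3 at chr9:22052024-22052273 on the minus strand, Ina at chr19:47014431-47014680 on the plus strand and Stmn3 at chr2:181314501-181314750 on the minus strand.
Elavl4: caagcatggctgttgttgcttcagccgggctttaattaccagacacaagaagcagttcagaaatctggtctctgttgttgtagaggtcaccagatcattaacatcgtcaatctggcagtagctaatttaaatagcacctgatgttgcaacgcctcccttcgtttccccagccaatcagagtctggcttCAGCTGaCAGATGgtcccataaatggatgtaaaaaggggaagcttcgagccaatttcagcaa
Elavl3: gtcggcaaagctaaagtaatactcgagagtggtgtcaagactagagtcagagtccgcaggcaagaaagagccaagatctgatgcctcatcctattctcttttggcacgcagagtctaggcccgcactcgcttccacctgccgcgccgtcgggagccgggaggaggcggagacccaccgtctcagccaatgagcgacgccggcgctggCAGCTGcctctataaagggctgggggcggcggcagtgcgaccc
Ina: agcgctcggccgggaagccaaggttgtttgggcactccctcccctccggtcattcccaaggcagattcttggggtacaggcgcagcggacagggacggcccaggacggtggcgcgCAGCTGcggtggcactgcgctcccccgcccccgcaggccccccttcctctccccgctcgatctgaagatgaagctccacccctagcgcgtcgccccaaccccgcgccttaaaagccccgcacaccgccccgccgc
Stmn3: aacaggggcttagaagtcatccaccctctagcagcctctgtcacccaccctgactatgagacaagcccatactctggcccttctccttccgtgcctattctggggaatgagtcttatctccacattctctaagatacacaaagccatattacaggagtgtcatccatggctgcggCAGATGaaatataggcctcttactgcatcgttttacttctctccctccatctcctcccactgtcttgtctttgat

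The Elavl4 window held both motifs side by side, CAGCTG 46 to 41 bases before the start and CAGATG 39 to 34 bases before it. This window lies inside the span of Elavl4. Another Elavl4 window, at chr4:110351912-110352161, lies upstream of that span and held neither motif. The Elavl3 window held CAGCTG 43 to 38 bases before its start. RefSeq windows were matched for 6 of the 10 genes, some with more than 1 start. These 6 genes have 10 windows, of which 4 held CAGCTG and 4 held CAGATG. For each motif, 2 of the 4 are overlapping windows of Elavl4. Among all 32851 windows of the same length, 13.0% held CAGCTG and 14.4% held CAGATG. A further motif, TTCAGCACC, a half-site of the neuron-restrictive silencer element, was searched on both strands and was in none of the 6 and in 0.301% of all windows. A match is a run of letters and not a measured binding site.

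After removal of cells with fewer than 500 detected genes or at least 10% mitochondrial UMIs, 9501 and 5544 cells were kept in Apcdd1+/- libraries and 6258 and 2956 in the WT libraries. Their median depth was 9118 and 8934.5 UMIs per cell in Apcdd1+/- libraries and 11506 and 17133.5 in WT. A level below is the mean over cells of UMIs per 10000 UMIs of that cell, and ± is the SD over 4 libraries unless stated. Any 2 libraries shared 6 to 25 bead barcodes, at most 0.382% of the shorter list, and the list for Apcdd1+/- replicate 1 named 3994 of its 9735 cells. No doublet caller was run, so doublets must be taken as present; 46 and 26 cells with markers of more than 1 lineage in Apcdd1+/- libraries and 52 and 26 in WT were set aside.

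Apcdd1 itself did not separate the genotypes. Its level in the summed UMIs was 0.774 and 0.495 per 10000 in Apcdd1+/- libraries and 0.634 and 0.608 in WT, and the edgeR log2 difference was 0.08 (95% interval -0.45 to 0.61, adjusted p = 1.00). The groups overlapped, so Apcdd1+/- and WT stand here for how a library is labelled.

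Cell states were gated on markers that include none of the 10 genes. A neuron had UMIs for at least 3 of 8 neuron marker genes (Snap25, Syt1, Nsg2, Myt1l, Rtn1, Gng3, Scg3 and Mllt11). A neuroblast had UMIs for at least 2 of 6 proneural factors (Neurog1, Neurog2, Neurod1, Neurod4, Nhlh1 and Insm1), and a progenitor for at least 2 of 8 genes including Sox2, Hes5 and Nes. This gave 574 and 464 neurons in Apcdd1+/- libraries and 625 and 424 in WT, with 279 and 210 neuroblasts against 275 and 125, and 6395 and 3540 progenitors against 3729 and 1681. Defining genes of mesenchyme, endothelium, erythroid cells and crest glia (Col3a1, Pecam1, Klf1 and Sox10) stood at 0.06 UMIs per 10000 or below in the neurons of every library. These genes also served in the non-neural gates, whose cells were kept out of the neurons. Their low levels follow in part from the gating and are no separate check of it. The neuron markers were not confined to neurons. Across libraries Rtn1 had a UMI in 84.7% to 89.4% of neurons and in 23.2% to 31.3% of progenitors. Snap25 had a UMI in 23.5% to 34.9% of neurons and in 1.42% to 2.68% of progenitors.

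The gate admits more cells where cells are sequenced more deeply, which touches every level in neurons given here. At the full depth, median UMIs per neuron were 10111.5 and 10776.5 in Apcdd1+/- libraries and 12460 and 19829.5 in WT, and the proliferation gene Mki67 stood at 1.06 and 1.25 against 1.13 and 2.13 UMIs per 10000. With every cell thinned to 3000 UMIs before gating, neurons numbered 234 and 201 in Apcdd1+/- libraries and 244 and 112 in WT. Mki67 then averaged 0.42 UMIs per 10000 in neurons, 1.41 in neuroblasts and 2.51 in progenitors. Values at this equal depth, and with a stricter gate of at least 5 of the 8 genes, are given below for the tests and for several of the levels.

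Apcdd1+/- replicate 1 also stood apart in a regional marker. The hindbrain gene Hoxb1 had no UMI in its neurons or progenitors, while the neurons of Apcdd1+/- replicate 2, WT replicate 1 and WT replicate 2 had 0.184, 0.0472 and 0.119 UMIs per 10000. Results on single kinds of neuron are therefore given without this library as well where it moves them.

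All 10 genes were higher in neurons than in progenitors. Tubb3 stood at 19.4 and 23.0 UMIs per 10000 in the neurons of Apcdd1+/- libraries and 15.5 and 11.0 in those of WT, a mean of 17.2 ± 5.14, against 0.723 ± 0.117 in progenitors. Nefm stood at 12.8 and 34.6 in Apcdd1+/- neurons and 23.6 and 19.4 in WT neurons, a mean of 22.6 ± 9.14, against 0.33 ± 0.0522 in progenitors. No library's progenitors reached the neurons of any library for either gene. At equal depth Tubb3 averaged 31.3 ± 4.63 and Nefm 47.9 ± 15.3 in neurons, and with the stricter gate Tubb3 averaged 31.3 ± 6.31 and Nefm 57.4 ± 16.6.

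Tests used UMI sums per library and state in edgeR's quasi-likelihood fit, with the library as a block, and a gene is called where its Benjamini-Hochberg adjusted p over all 12760 genes tested is below 0.05. All 10 genes passed the filter on low counts in every comparison. In neurons against progenitors 10 of 10 were called higher, where 28.4% of all genes tested were higher, and their median log2 difference was 5.53 against -0.02 over all genes. The differences ran from 2.91 (SE 0.07) for Elavl3 and 3.12 (SE 0.09) for Stmn3 to 6.64 (SE 0.13) for Nefl and 6.77 (SE 0.14) for Ina. Dcx differed by 6.39 (SE 0.10), Nefm by 5.98 (SE 0.17), Stmn2 by 5.88 (SE 0.06), Gap43 by 5.19 (SE 0.14), Tubb3 by 4.37 (SE 0.07) and Elavl4 by 3.73 (SE 0.11). The largest of the 10 adjusted p was 4.85e-17.

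At equal depth, a setting described above, all 10 were again called higher in neurons than in progenitors, where 32.2% of all genes were, and with the stricter gate also, where 38.1% were. Elavl3 and Stmn3, with the smallest differences, were also those with the highest progenitor levels relative to their own neuron level, 12.2% and 11.1%. Nefl and Ina were among the lowest, at 0.987% and 0.992%.

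Neuroblasts already carried part of the set. All 10 genes were called higher in neuroblasts than in progenitors, where 20.5% of all genes tested were higher. The order of the differences was not that of neurons: Dcx, Elavl4 and Tubb3 led with log2 differences of 4.90 (SE 0.13), 3.75 (SE 0.13) and 3.45 (SE 0.07), while Gap43 and Stmn3 were last with 1.73 (SE 0.22) and 0.84 (SE 0.14). Ina, Elavl3, Stmn2, Nefm and Nefl lay between, at 3.15, 2.67, 2.62, 2.53 and 2.38, and the largest adjusted p of the 10 was 7.22e-05, that of Stmn3. All 10 were also called higher at equal depth, where 20.4% of all genes were, and with the stricter neuron gate, where 24.8% were. In both of these settings Dcx stayed first, Gap43 and Stmn3 last, and Ina took the second place.

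Set against neurons, neuroblasts reached a different share of the neuron level gene by gene. Elavl4 stood at 2.07 and 1.71 UMIs per 10000 in the neuroblasts of Apcdd1+/- libraries and 1.62 and 1.72 in those of WT, where neurons had 1.96 and 1.84 in Apcdd1+/- libraries and 1.75 and 1.59 in WT. Its neuroblast level was thus 99.8 ± 8.12% of its neuron level. Elavl3 reached 79.7 ± 7.29%, Tubb3 50.8 ± 4.78%, Dcx 35.7 ± 6.21% and Stmn3 19.8 ± 2.48%, and these first 5 ranks were the same in all 4 libraries.

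The other 5 genes were lower in this measure. Stmn2 reached 12.0 ± 2.08% of its neuron level, Gap43 10.9 ± 4.64%, Nefm 10.0 ± 4.03% and Ina 9.71 ± 2.05%. Nefl had 0.415 and 0.999 UMIs per 10000 in neuroblasts of Apcdd1+/- libraries and 0.519 and 0.589 in those of WT, 6.19 ± 1.13% of its neuron level, and ranked last in every library.

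**Figure D1:**
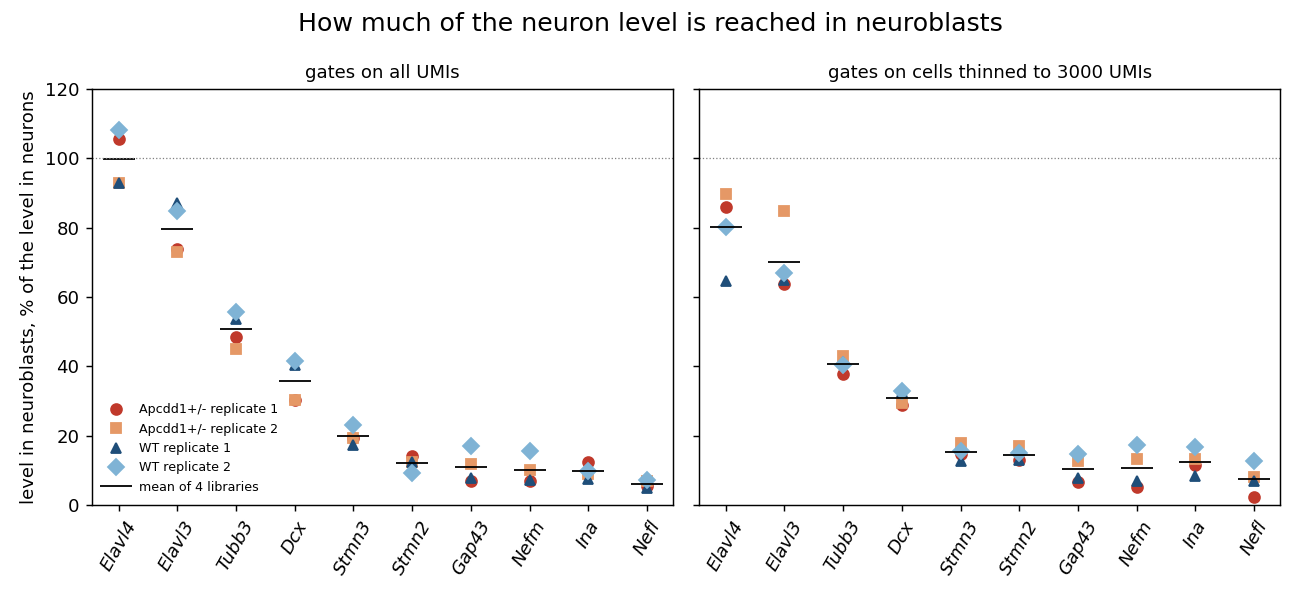
Level of each gene in neuroblasts as a percent of its level in neurons (vertical axis), gated on all UMIs (left) and on cells thinned to 3000 UMIs (right), with 1 point per library and a bar at the mean of 4 libraries. Elavl3 and Elavl4 sit at 63.7% or above in both panels, Tubb3 and Dcx between 28.8% and 55.6%, and the 6 remaining genes at 23.2% or below.

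At equal depth, where gates were set on cells thinned to 3000 UMIs, the same 5 genes led on average. Their means were 80.1% for Elavl4, 70.1% for Elavl3, 40.6% for Tubb3, 30.9% for Dcx and 15.2% for Stmn3. The ranks were not the same in every library. In WT replicate 1 Elavl3, at 65.0%, was above Elavl4, at 64.7%, and Stmn3, at 12.6%, was below Stmn2, at 12.9%. In WT replicate 2 Stmn3, at 15.5%, was below Nefm, at 17.3%, and Ina, at 16.9%. Nefl again had the lowest mean, at 7.52%.

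In the test of neurons against neuroblasts 9 of 10 genes were called higher, where 15.3% of all genes tested were higher. Nefl differed by 4.26 (SE 0.16), Ina by 3.62 (SE 0.16), Gap43 by 3.46 (SE 0.17), Nefm by 3.45 (SE 0.18) and Stmn2 by 3.26 (SE 0.07) on the log2 scale. Stmn3 followed with 2.28 (SE 0.12), Dcx with 1.49 (SE 0.09) and Tubb3 with 0.92 (SE 0.07). Elavl3 differed by 0.24 (SE 0.07, adjusted p = 0.0186) and Elavl4 by -0.03 (95% interval -0.26 to 0.21, adjusted p = 0.894).

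Both RNA-binding protein genes depended on the neuron gate. At equal depth Elavl4 was called higher in neurons by 0.29 (adjusted p = 0.0283) and Elavl3 by 0.49 (adjusted p = 1.1e-06), and 10 of 10 genes were called, where 17.2% of all genes were. Under the gate of at least 5 of 8, Elavl4 was higher by 0.76 and again 10 of 10 were called, where 28.7% were. With a looser gate of at least 2 of 8, Elavl4 and Elavl3 were called lower in neurons, at -0.70 and -0.36, where 1455 of all 13914 genes tested were lower. The call for Elavl3 was lost without Apcdd1+/- replicate 2 (0.17, adjusted p = 0.129) and without WT replicate 1 (0.24, adjusted p = 0.0667).

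Shares of cells with a UMI were compared for Tubb3 and Nefl. With cells gated at full depth and then thinned to 3000 UMIs, Tubb3 was detected in 69.1% and 68.0% of neuroblasts of Apcdd1+/- libraries and 64.2% and 52.4% of those of WT, against 67.0%, 72.3%, 63.4% and 52.0% of neurons in the same libraries. Nefl was detected in 4.09% and 10.3% of neuroblasts of Apcdd1+/- libraries and 7.55% and 8.06% of those of WT, against 33.2%, 43.2%, 33.3% and 28.6% of neurons. In erythroid cells, which should lack both genes, Nefl had no UMI in any library's 24 to 45 thinned cells, which allows shares of up to 6.67% in the largest and 12.5% in the smallest of these samples, and Tubb3 was in 2.22% and 3.12% of cells in Apcdd1+/- libraries and 0% and 12.0% in WT. The Nefl shares of neuroblasts thus lie near what so few erythroid cells allow.

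Without thinning, Nefl was in 12.2% and 14.8% of neuroblasts of Apcdd1+/- libraries and 11.6% and 19.2% of those of WT, against 42.3%, 52.8%, 42.7% and 37.7% of neurons in the same libraries. Tubb3 was in 84.2% and 78.6% of neuroblasts of Apcdd1+/- libraries and 81.1% and 73.6% of those of WT. Erythroid cells, with a median of 15437.5 to 34050.5 UMIs where neuroblasts had 6868 to 13035, held Nefl in 0% and 0% of cells in Apcdd1+/- libraries and 0% and 7.14% in WT, and Tubb3 in 10.2% and 12.5% against 4.17% and 35.7%. Both genes were therefore in a larger share of neuroblasts than of the more deeply sequenced erythroid cells in every library.

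A cell passing the neuron gate did not always carry these genes. At 3000 UMIs the median neuron had 4 and 6 of the 10 in Apcdd1+/- libraries and 4 and 2 in WT. None of the 10 was detected in 21.3% and 17.2% of neurons of Apcdd1+/- libraries and 22.8% and 30.1% of those of WT, while all 10 were found in 6.57% and 10.7% against 7.22% and 7.16%. The 10 genes summed to a median of 44.3 and 73.0 UMIs per 10000 per neuron in Apcdd1+/- libraries and 36.7 and 6.67 in WT, at full depth. WT replicate 2, with the fewest genes per neuron, was also the deepest library and the one with most Mki67 in its neurons; their part in the result was not tested.

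The levels were followed along the number of neuron markers per cell, again at 3000 UMIs. Tubb3 averaged 0.83 UMIs per 10000 in cells with none of the 8 markers, 2.38 with 1, 10.1 with 2, 26.1 with 3 and 36.7 with 6 or more. Nefm averaged 0.34 with none, 8.32 with 2, 34.2 with 3 and 73.6 with 6 or more. Elavl4 averaged 0.15 with none, 3.23 with 3 and 3.47 with 6 or more, so its level at 3 markers was already close to that of the most marked cells. The last step holds 7 to 18 cells per library. At 5 markers, with 16 to 40 cells per library, Tubb3 averaged 36.6, Nefm 60.3 and Elavl4 2.90. Mki67 went the other way, with 2.36 at none and 0.17 at 6 or more.

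**Figure D2:**
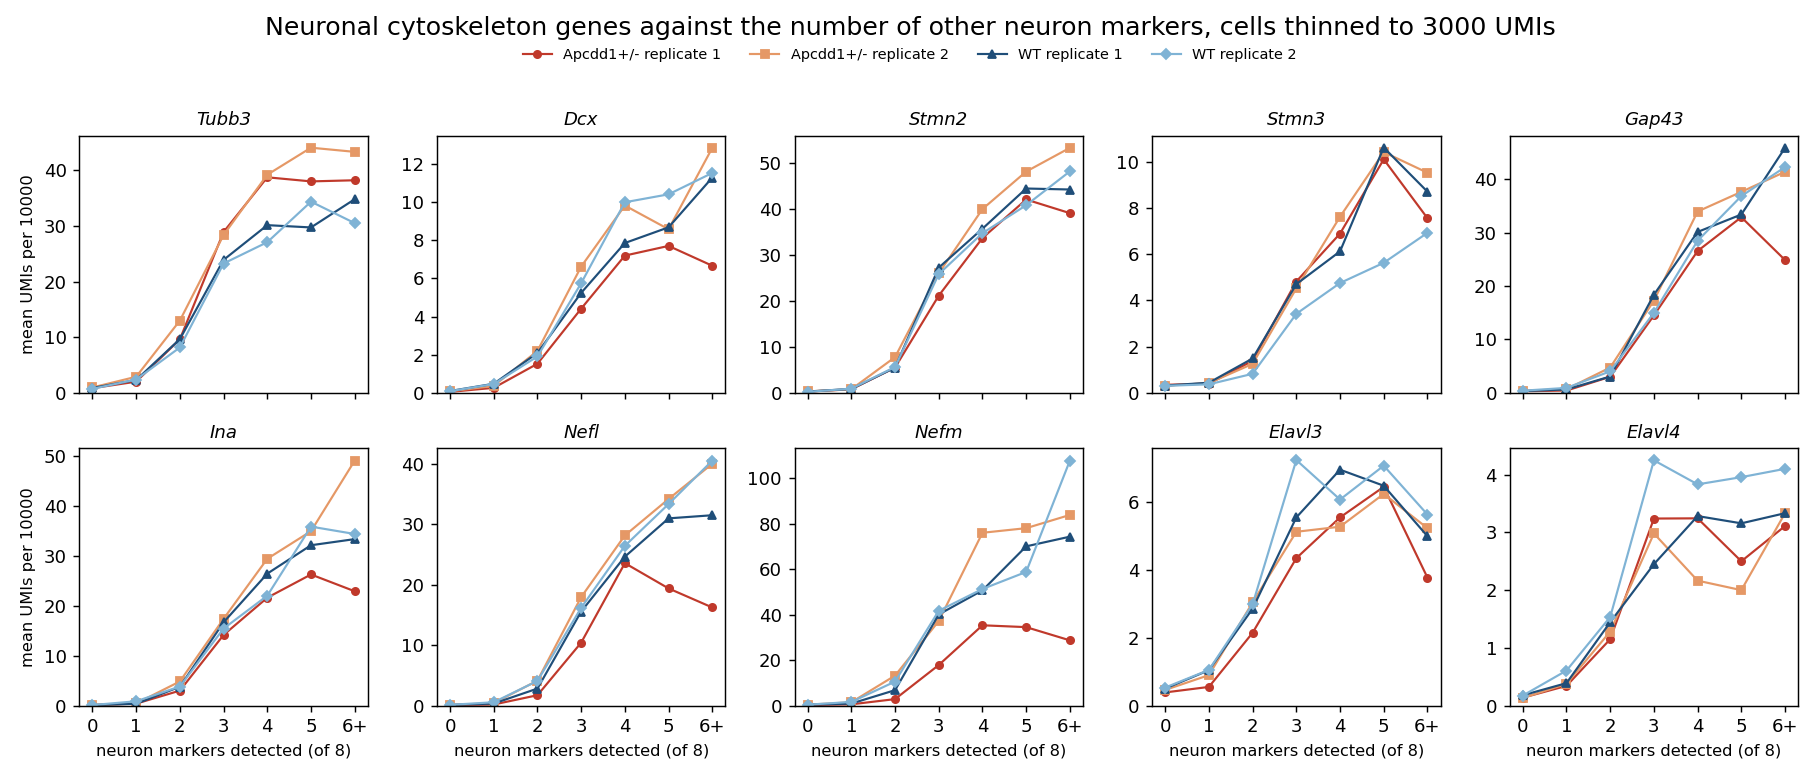
Mean level of each gene in UMIs per 10000 (vertical axis, starting at 0, its own scale per panel) against the number of the 8 neuron markers detected in a cell (horizontal axis), with cells thinned to 3000 UMIs and 1 line per library. Elavl3 is lower at 6 or more markers than at 4 in every library, while Nefm reaches 73.6 on average at 6 or more, a step with 7 to 18 cells per library.

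Relatives of the 10 genes did not all share the pattern. Of 11 other tubulins 6 were called higher and 5 lower in neurons than in progenitors, where 28.4% of all genes tested were higher and 29.7% lower. The alpha-tubulin Tuba1a was higher by 1.62 and Tubb2b by 0.93 on the log2 scale, while Tuba1b was lower, at -0.47. Of 13 microtubule-binding proteins and stathmin relatives 13 were higher, among them Map1b by 1.41 and Stmn1 by 1.18. Of 15 growth cone and axon proteins 14 were higher and 1 was not called, with Crmp1 at 2.40, Dpysl3 at 2.07 and Basp1 at 1.13.

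The progenitor filament genes Nes and Vim were both lower in neurons, unlike the filament genes of neurons, but only Nes was lower in neuroblasts. In neuroblasts, where 19.1% of all genes were called lower than in progenitors, Vim was higher by 0.29 and Nes lower, at -0.20. Vim and Nes were lower in neurons than in progenitors, at -0.19 and -0.46. In that comparison 28.4% of all genes were higher and 29.7% lower. Of 10 ELAV and other neuronal RNA-binding proteins 9 were higher and 1 lower, with Celf3 at 3.15, Srrm4 at 2.62 and Elavl2 at 2.20. Of 13 kinesin and dynein motors 12 were higher, with Kif5c at 1.50, and of 8 cell cycle genes 8 were lower.

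The neuronal splicing factor Srrm4 went in opposite directions in the 2 steps. It was higher in neuroblasts than in progenitors by 3.64 (SE 0.09) and lower in neurons than in neuroblasts, at -1.02 (SE 0.08), whereas the neuronal RNA-binding protein Celf4 was higher in neurons than in neuroblasts by 2.41 (SE 0.13). In neurons against neuroblasts 10 of 13 microtubule-binding genes, 10 of 15 growth cone genes and 9 of 13 motors were higher, with 0, 2 and 2 lower. In the same comparison 8 of 8 cell cycle genes were lower. Of all genes 15.3% were higher and 16.2% lower.

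Neurons were next divided by transcription factors, none of them among the 10. Isl1 with Pou4f1 is known from sensory neurons of the cranial ganglia, and Tbr1 and Eomes from early glutamatergic neurons of the forebrain. Gata2, Gata3 and Tal2 mark GABAergic neurons of the midbrain and hindbrain, Pou4f1 without Isl1 marks neurons of the dorsal midbrain, and Lhx1 and Lhx5 mark several kinds of interneuron. Neurons that none of the transcription factor gates took are called other neurons. The 6 kinds held 35 and 60, 17 and 17, 115 and 60, 62 and 54, 142 and 86, and 175 and 144 neurons in Apcdd1+/- libraries, and 51 and 45, 25 and 9, 91 and 60, 64 and 50, 102 and 76, and 239 and 155 in WT, in that order.

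Neurofilament genes differed widely between the kinds. Nefm stood at 48.4 and 69.4 UMIs per 10000 in the Isl1 and Pou4f1 positive neurons of Apcdd1+/- libraries and 68.5 and 60.5 in those of WT. In Pou4f1 positive central neurons it stood at 32.5 and 60.5 in Apcdd1+/- libraries and 53.5 and 44.6 in WT. It was far lower in Gata or Tal2 positive neurons, with 2.90 and 5.70 in Apcdd1+/- libraries and 6.36 and 3.67 in WT.

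Of these 6 kinds, Tbr1 or Eomes positive neurons had the least Nefm, 2.23 and 6.27 UMIs per 10000 in Apcdd1+/- libraries and 2.60 and 1.56 in WT, although these values overlap those of the Gata or Tal2 positive neurons. Lhx1 or Lhx5 positive central neurons had 11.0 and 21.7 against 14.7 and 9.46, and other neurons 6.24 and 12.7 against 6.52 and 3.27. At full depth the 2 kinds of these 6 with most Nefm did not overlap the other 4 in any library pair.

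At equal depth that separation across libraries was partly lost. Nefm averaged 73.1 in Isl1 and Pou4f1 positive neurons, 64.9 in Pou4f1 positive central neurons and 35.9 in other neurons, which had 7.18 at full depth, and lay between 24.4 and 46.2 in the libraries of Lhx1 or Lhx5 positive central neurons. Gata or Tal2 positive neurons averaged 11.3 and Tbr1 or Eomes positive neurons 4.55. The lowest library of Pou4f1 positive central neurons, at 38.4, was then below the highest of Lhx1 or Lhx5 positive central neurons, at 46.2, and of other neurons, at 52.7. With the gate of 5 of 8 the lowest Pou4f1 positive central library had 44.2 and the highest Lhx1 or Lhx5 positive library 50.1.

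**Figure D3:**
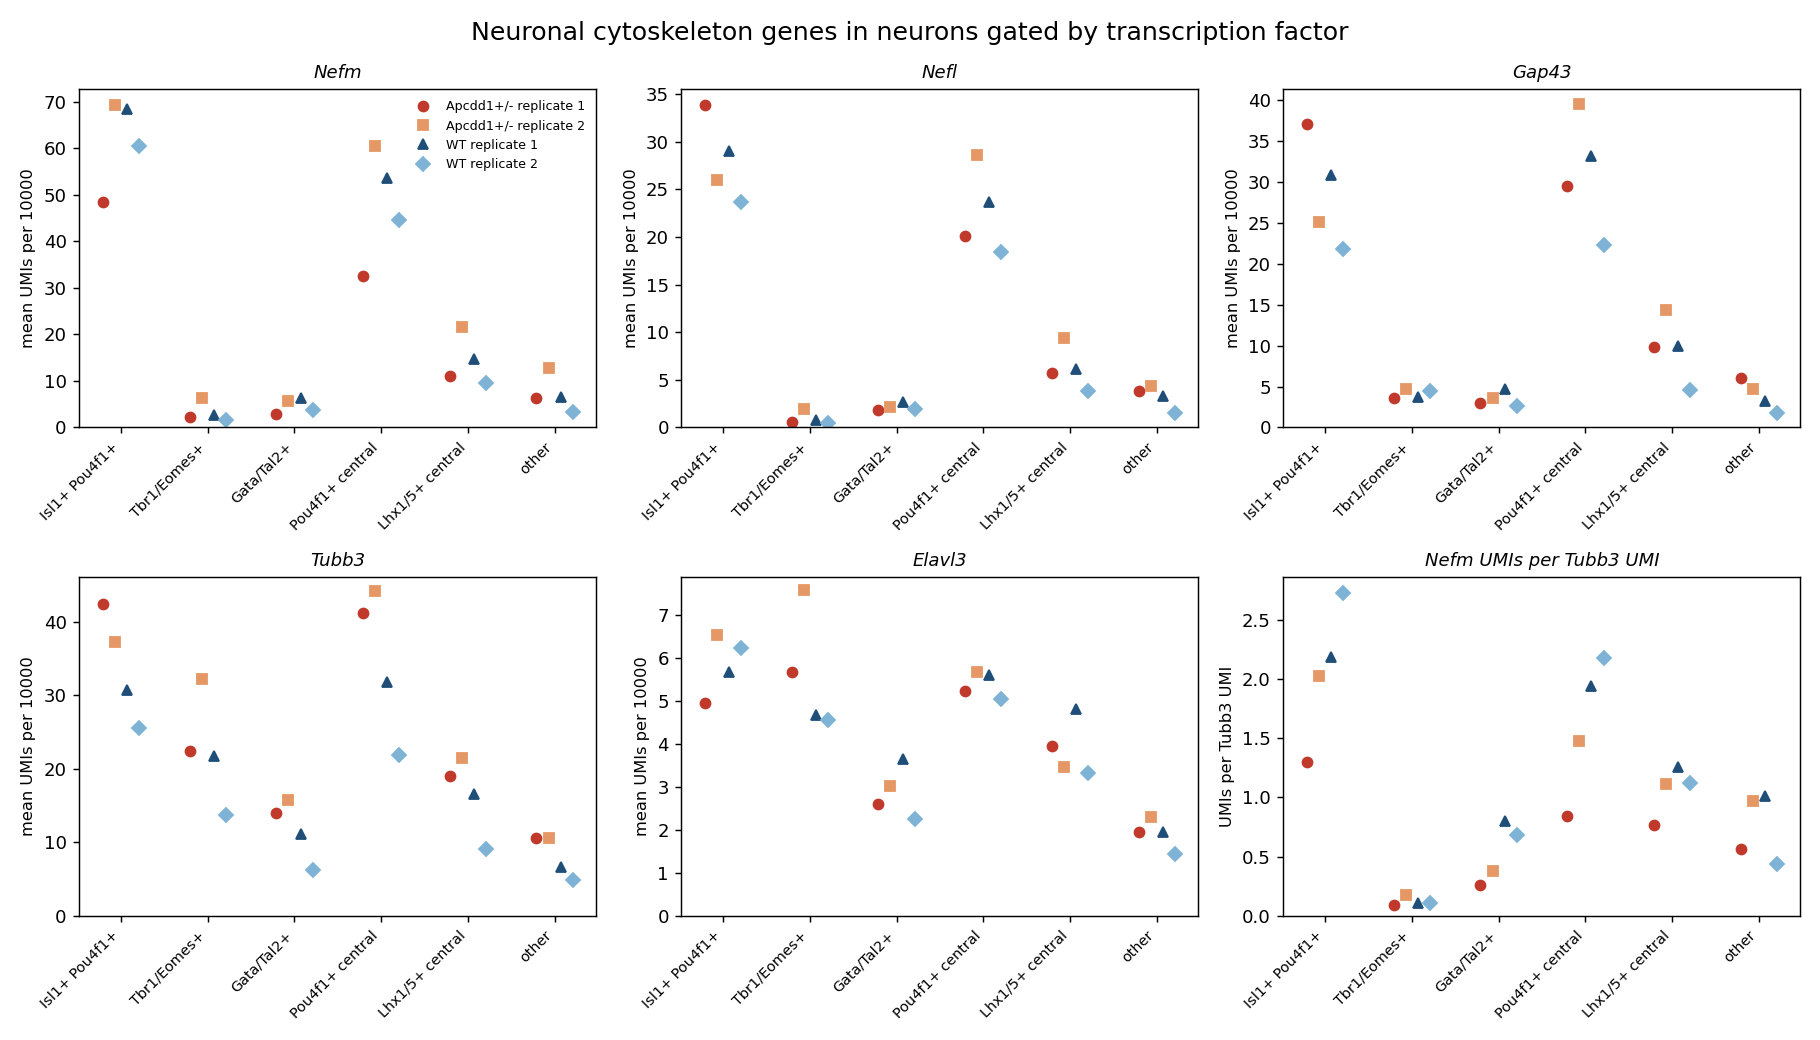
Levels of 5 genes in UMIs per 10000, and Nefm UMIs per Tubb3 UMI in the last panel (vertical axes, starting at 0), in 6 kinds of neuron gated by transcription factor (horizontal axis), with 1 point per library. Nefm averages 61.7 in Isl1 and Pou4f1 positive neurons and 4.66 in Gata or Tal2 positive neurons, while Tubb3 averages 34.0 and 11.8 in the same kinds.

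At full depth Tubb3 varied less and in another order. It averaged 34.8 ± 10.1 UMIs per 10000 in Pou4f1 positive central neurons, 34.0 ± 7.38 in Isl1 and Pou4f1 positive neurons and 22.5 ± 7.60 in Tbr1 or Eomes positive neurons. It averaged 16.5 ± 5.40 in Lhx1 or Lhx5 positive central neurons, 11.8 ± 4.20 in Gata or Tal2 positive neurons and 8.16 ± 2.87 in other neurons. The ranges of each pair of neighbours in this order overlapped. At equal depth the kinds were closer and the order changed, with 43.6 in Pou4f1 positive central neurons, 39.0 in Isl1 and Pou4f1 positive, 29.4 in Lhx1 or Lhx5 positive central, 29.2 in Tbr1 or Eomes positive, 25.8 in other and 23.8 in Gata or Tal2 positive neurons.

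At full depth Dcx was highest, of these 6 kinds, in Pou4f1 positive central neurons, with 6.98 and 9.03 in Apcdd1+/- libraries and 8.03 and 7.32 in WT, above every Isl1 and Pou4f1 positive value, of which the highest was 6.37. At equal depth Dcx averaged 9.36 in Lhx1 or Lhx5 positive central neurons against 8.64 in Pou4f1 positive central neurons, so the latter were no longer highest. The lowest of the Pou4f1 positive central values, 6.75, was then below the highest Isl1 and Pou4f1 positive value, 7.14. Within each library Pou4f1 positive central neurons were still above the Isl1 and Pou4f1 positive ones. They had 6.75 and 10.0 against 4.85 and 7.14 in Apcdd1+/- libraries, and 8.97 and 8.84 against 6.52 and 6.85 in WT.

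At full depth the ratio of Nefm to Tubb3 separates Tbr1 or Eomes positive neurons from the rest. They had 0.092 and 0.171 Nefm UMIs per Tubb3 UMI in Apcdd1+/- libraries and 0.103 and 0.107 in WT. Gata or Tal2 positive neurons had 0.263 and 0.377 in Apcdd1+/- libraries and 0.804 and 0.679 in WT, with no overlap. Tbr1 or Eomes positive neurons reached 20 cells in WT replicate 1 alone, so these ratios rest on 9 to 25 cells a library and were not tested. At equal depth the separation did not hold in Apcdd1+/- replicate 1. Its 8 Tbr1 or Eomes positive neurons then had 5.42 Nefm and 23.3 Tubb3 UMIs per 10000, where Gata or Tal2 positive neurons had 5.44 and 30.6. In Apcdd1+/- replicate 2 and both WT libraries the ratio stayed lower in Tbr1 or Eomes positive neurons. At full depth Elavl3 was not low in Tbr1 or Eomes positive neurons, at 5.63 ± 1.40 UMIs per 10000 against 5.85 ± 0.692 in Isl1 and Pou4f1 positive neurons. With the looser gate of at least 2 of 8 Tbr1 or Eomes positive neurons numbered 25 and 22 in Apcdd1+/- libraries and 40 and 14 in WT. A test could thus use 3 libraries, with WT replicate 1 as the only WT library. In it 3 of 10 genes were lower than in the other kinds, where 1.76% of all genes were, with Nefl at -2.97 (adjusted p = 8.34e-06), Nefm at -2.33 (adjusted p = 4.8e-07) and Gap43 at -1.30 (adjusted p = 0.00338). In the same test 4 of 10 were higher, where 4.06% of all genes were, with Elavl3 at 1.03 (adjusted p = 7.57e-07), Tubb3 at 0.82 (adjusted p = 2.1e-06), Elavl4 at 0.78 and Dcx at 0.71.

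Each of the other 5 kinds was tested against the mean of the remaining ones, over 10223 genes, with sums of fewer than 20 cells left out. In Isl1 and Pou4f1 positive neurons 10 of 10 genes were called higher, where 17.3% of all genes were, led by Nefm at 2.40 (SE 0.19), Nefl at 2.34 (SE 0.20) and Gap43 at 2.02 (SE 0.18). Without Apcdd1+/- replicate 1, Nefm was at 2.34, Nefl at 2.18 and Gap43 at 1.85 in these neurons. In Pou4f1 positive central neurons 10 of 10 were higher, where 17.0% of all genes were, led by Gap43 at 2.16 (SE 0.18) and Nefl at 1.85 (SE 0.20).

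In Gata or Tal2 positive neurons 10 of 10 genes were called lower, where 10.9% of all genes were. Nefm, Nefl and Gap43 were lower by the most, at -2.63 (SE 0.27), -2.50 (SE 0.28) and -2.12 (SE 0.25), while Elavl3 and Elavl4 were at -0.69 (SE 0.13) and -0.77 (SE 0.12). In other neurons 10 of 10 were lower, where 21.3% of all genes were. In Lhx1 or Lhx5 positive central neurons 0 of 10 were higher, where 4.04% were, and 2 of 10 were lower, where 2.47% were: Elavl4 at -0.43 (adjusted p = 0.0163) and Tubb3 at -0.38 (adjusted p = 0.0335).

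The 8 cell cycle genes moved with these calls. They were higher, 8 of 8, in Gata or Tal2 positive neurons, where 12.9% of all genes were, and in other neurons, where 21.9% were. They were lower, 8 of 8, in Isl1 and Pou4f1 positive neurons, where 13.8% of all genes were, and in Pou4f1 positive central neurons, where 14.1% were. Sox2, a progenitor gene, stood at 2.69 to 4.69 UMIs per 10000 in Gata or Tal2 positive neurons and at 0.02 to 0.25 in Isl1 and Pou4f1 positive neurons. Their part in the result was not tested.

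At equal depth Nefm, Nefl and Gap43 had the largest differences of the 10 in Gata or Tal2 positive and in Isl1 and Pou4f1 positive neurons, while Ina, the other filament subunit, was not called in either. In Gata or Tal2 positive neurons 6 of 10 genes were called lower, where 2.19% of all genes were, with Nefm at -2.62, Nefl at -2.48 and Gap43 at -1.79, while Elavl3 was at 0.02, Elavl4 at -0.23, Dcx at -0.30 and Ina at -0.28, none of them called. With the gate of at least 5 of 8 again 6 of 10 were called lower, where 0.610% were, with Nefm at -1.93, Nefl at -1.84 and Gap43 at -1.54.

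In Isl1 and Pou4f1 positive neurons 6 of 10 genes were called higher at equal depth, where 4.95% of all genes were. WT replicate 2, with 18 of these neurons at that depth, did not enter for this kind. Nefm was at 1.47, Nefl at 1.41, Gap43 at 0.82, Stmn2 at 0.71, Elavl4 at 0.65 and Tubb3 at 0.45, whereas Dcx was at -0.18, Ina at -0.25, Elavl3 at -0.03 and Stmn3 at 0.04, not called. Again 6 of 10 were called with the gate of at least 5 of 8, where 7.00% were. Pou4f1 positive central neurons held a broader set, with 8 of 10 called higher, where 6.43% were, and Gap43 first at 1.36. Elavl3 and Elavl4 were the 2 not called there. In these neurons 7 of 10 were called with the gate of at least 5 of 8, where 5.60% were.

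The calls in Lhx1 or Lhx5 positive central neurons depended on the setting. With a gate of at least 2 of 8, or without a filter on low counts, more of the 10 were called lower in these neurons, as given further below. At equal depth 1 of 10 genes, Dcx at 0.45, was called higher there, where 2.01% of all genes were, and with the gate of at least 5 of 8 none was called in either direction; without Apcdd1+/- replicate 1 the test at full depth called 5 lower, where 2.24% of all genes were, without WT replicate 1 it called 2, where 1.37% were, and without Apcdd1+/- replicate 2 or WT replicate 2 it called none. In other neurons 2 of 10 genes were called lower at equal depth, where 0.247% were, and 8 of 10 with the gate of at least 5 of 8, where 0.720% were.

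At full depth growth cone and microtubule genes outside the 10 moved in the same kinds of neuron. These lists were not counted at equal depth. In Gata or Tal2 positive neurons 12 of 15 growth cone genes, 10 of 13 microtubule-binding genes and 8 of 12 motors were called lower, with 0, 0 and 1 higher. Of all genes tested there, 10.9% were lower and 12.9% higher. In Pou4f1 positive central neurons 13 of 13 microtubule-binding genes and 11 of 15 growth cone genes were higher and none was lower. Of all genes tested there, 17.0% were higher and 14.1% lower. In Isl1 and Pou4f1 positive neurons the counts were 9 of 13 and 9 of 15 higher, with 0 and 1 lower. Of all genes tested there, 17.3% were higher and 13.8% lower. Of 3 intermediate filament relatives tested there, Vim was higher by 0.44 and Nes lower, at -2.74.

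Across the 25 profiles of a kind of neuron in 1 library with at least 20 cells, the 10 genes ran together to different degrees. Nefl and Nefm had the highest Pearson correlation of their log levels, r = 0.99, and Dcx and Nefl the lowest, r = 0.71. Profiles of 1 library share its depth, and 25 profiles come from 4 libraries, so these are descriptions. Over 67 profiles that also include progenitors, neuroblasts and non-neural cells, the genes most like the mean of the 10 among 3472 candidates were Tagln3 (r = 0.976), Srrm3 (r = 0.976) and Onecut2 (r = 0.974). Gng3, Rtn1 and Mllt11, which follow with 0.974, 0.973 and 0.971, were used in the neuron gate, and Gprin1, Stmn4, Napb and Rab6b complete the first 10.

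Gap43 was least like the other members in these profiles, with r = 0.830 against their mean, where Dcx had 0.980. It stood at 8.32 and 4.85 UMIs per 10000 in crest glia, gated on Sox10 and related genes, of Apcdd1+/- libraries and 5.40 and 6.68 in those of WT. In mesenchyme it averaged 2.01 ± 0.376 and in endothelium 2.19 ± 0.538, above its 0.316 ± 0.0555 in progenitors. In erythroid cells Gap43 had no UMI in 3 libraries and 0.0636 in WT replicate 2. Crest glia numbered 14 to 31 cells per library. Ina had 0.860 ± 0.138 in crest glia, and Stmn2 had 0.370 and 0.121 in endothelium of Apcdd1+/- libraries and 0.924 and 0.0511 in that of WT.

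The genotype comparison, for which the series was made, found no called difference among the 10 genes. In neurons 0 of 10 were called, and 0% of all 12740 genes tested were, with 257 at an unadjusted p below 0.05 in edgeR and 0 called and 96 at an unadjusted p below 0.05 in DESeq2. In neuroblasts 0 of 10 and 0% of 10276 genes were called, with 254 at an unadjusted p below 0.05 in edgeR and 0 called and 63 in DESeq2. In progenitors 0 of 10 and 0% of 14642 genes were called, with 222 in edgeR and 0 called and 106 in DESeq2. Over all kept cells 0 of 10 and 0% of 15966 were called, with 188 in edgeR, while DESeq2 called 3 genes, none of the 10, with 139 below 0.05 unadjusted.

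Tubb3 had the largest difference of the 10 in neurons. Its levels, 19.4 and 23.0 UMIs per 10000 in Apcdd1+/- libraries against 15.5 and 11.0 in WT, did not overlap, and its log2 difference was 0.66 (SE 0.22, 95% interval 0.18 to 1.14, adjusted p = 1.00). At equal depth the levels were 34.0 and 36.4 in Apcdd1+/- libraries and 27.4 and 27.4 in WT, with a log2 difference of 0.39. With 2 libraries against 2 an exact permutation test cannot give a p below 0.33.

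Stmn3 and Nefm bracket the remaining genes. Stmn3 had 3.43 and 3.96 UMIs per 10000 in neurons of Apcdd1+/- libraries and 3.18 and 1.79 in WT, a log2 difference of 0.48 (95% interval -0.07 to 1.02). Nefm had 12.8 and 34.6 in Apcdd1+/- libraries and 23.6 and 19.4 in WT, with a difference of 0.07 (95% interval -0.68 to 0.81), so the 2 Apcdd1+/- libraries lie on either side of both WT libraries.

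**Figure D4:**
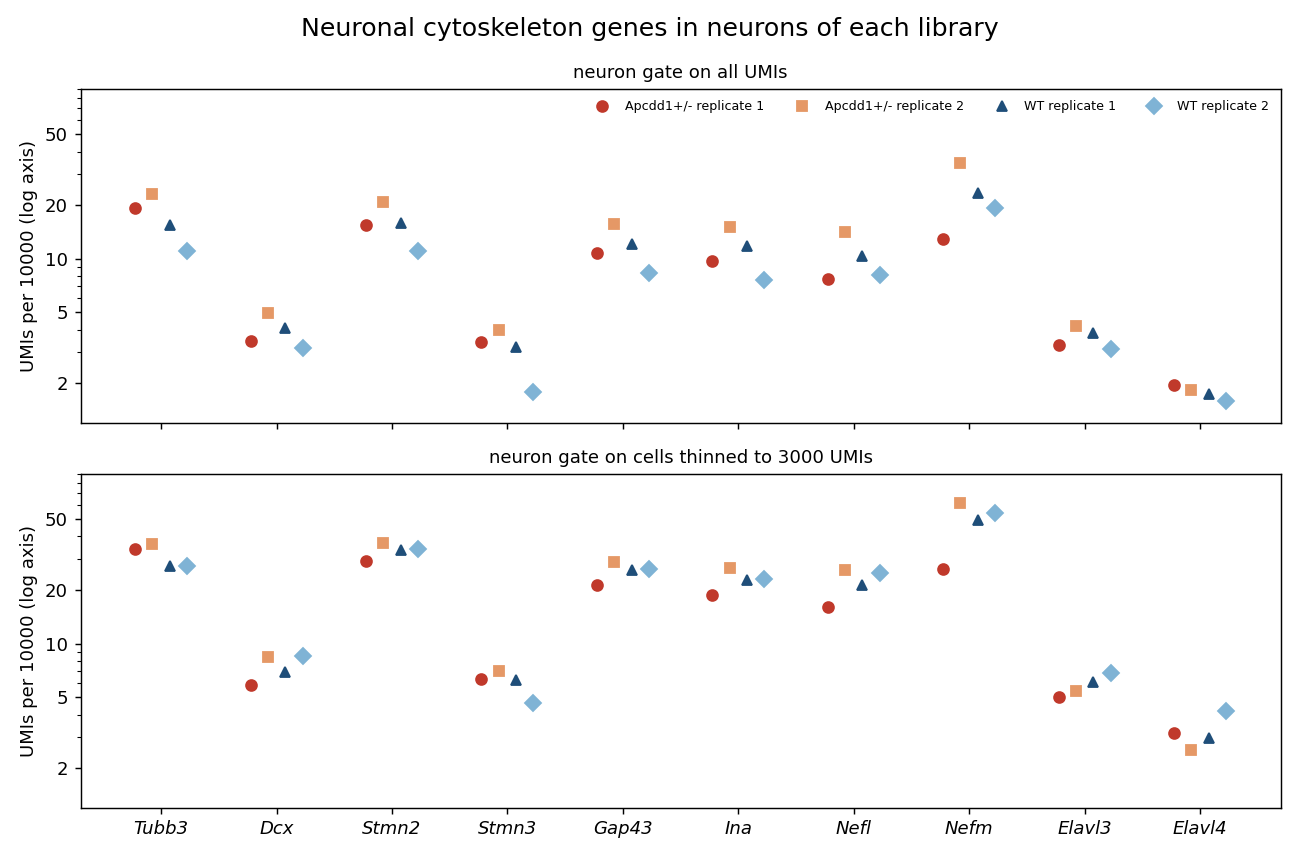
Level of each gene in neurons in UMIs per 10000 (vertical axis, log scale), with neurons gated on all UMIs (top) and on cells thinned to 3000 UMIs (bottom), 1 point per library. Nefm is lowest in Apcdd1+/- replicate 1 in both panels, at 12.8 and 26.3, and highest in Apcdd1+/- replicate 2, at 34.6 and 61.7.

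The shared direction of the 10 genes in neurons did not hold at equal depth. Their median log2 difference was 0.29, with 10 of 10 above 0, against 0.01 over all genes, and at equal depth it was -0.05, with 3 of 10 above 0. In neuroblasts the median was 0.16 with 6 above 0, in progenitors -0.07 with 3 above 0 and over all kept cells -0.29 with 2 above 0. Of the 10 genes, 3 had Apcdd1+/- levels all above WT in neurons, and at equal depth 2 were above and 1, Elavl3, below. In neuroblasts 4 were above, and 2 at equal depth. In progenitors 4 were below and 1 above, and at equal depth 6 were below. None of these genes was called, as 0% of all genes tested were. The same count of levels that do not overlap was not made over all genes, so these counts have no background to be judged against.

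Single libraries moved these comparisons. Without Apcdd1+/- replicate 2, 4 genes were called lower over all kept cells, where 0.786% of all genes tested were, Nefm at -1.53, Nefl at -1.06, Dcx at -0.89 and Ina at -0.83. Nefm was also called lower in neuroblasts without Apcdd1+/- replicate 2, at -1.76 (adjusted p = 8.79e-11), where 0.338% of all genes were lower, and without WT replicate 1, at -0.92 (adjusted p = 0.0496), where 0.189% were. These fits compare the remaining libraries, of which 1 stands alone in its group and is assumed to vary like the others, and in the first of them the lone Apcdd1+/- labelled library is the one without Hoxb1.

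The level over all cells also depends on how many neurons a library holds. Neurons made up 7.92% and 11.0% of gated neural cells in Apcdd1+/- libraries and 13.5% and 19.0% in WT, a difference of -6.79 percentage points between means (exact permutation test, two-sided, p = 0.33, the smallest it can give). At equal depth the shares were 3.97% and 5.78% in Apcdd1+/- libraries and 6.42% and 5.82% in WT, a difference of -1.25 points.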

How the data were processed

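The authors deposited UMI counts per gene and cell, 1 matrix per library. Per the labels' protocols, heads of E10.5 embryos were kept in a preservation solution, dissociated with enzymes, sorted for live cells and prepared with a DNBelab C kit. Per the file headers PISA 0.12 wrote the counts, and per the submitters' processing notes the build was mm10 and Scanpy 1.9.1 was used; aligner, annotation and cell filter are named in none of the sources used here. Cells with at least 500 genes and under 10% mitochondrial UMIs were kept, 24259 of 25074, with 55039664 to 96433545 UMIs per library, so that a level in progenitors rests on more cells and is more precise than one in a rare kind of neuron.

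Counts were scaled to 10000 UMIs per cell for levels, and raw counts were summed per library and gate for tests, with sums of fewer than 20 cells left out. The quasi-likelihood test of edgeR 4.0.16 ran under R 4.3.3, DESeq2 1.42.0 served as an alternative, and the code was checked on simulated counts. Library was a block for states and kinds of neuron, since each library gives every state; genotype was tested without a block. Cells thinned to 3000 UMIs, other neuron gates and omission of each library were further alternatives. A non-neural gate needed at least 3 of 6 markers. Cells in more than 1 non-neural gate, or in a non-neural gate and the neuron or neuroblast gate, were set aside. The rest took their non-neural gate first, then neuron, neuroblast or progenitor. Cells outside the neural gates were not tested by themselves. A further kind of neuron entered the fits, the mean of the other kinds and the profiles, and is not reported here. The 10 members were tested in every comparison; of each list of relatives the rule took up to 3 called genes with the highest level in neurons, and likeness was Pearson's r with the members' mean profile. Shares of cells cover counting error only. The members, lists and gates were chosen with earlier results of these data known.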

Additional observations from a re-analysis of the deposited data

How the results depend on the processing

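All 10 genes were called higher in neurons and in neuroblasts than in progenitors under every alternative run, namely DESeq2 size factors, no filter on low counts, DESeq2, cells thinned to 3000 UMIs, looser and stricter neuron gates and each library left out. The stricter gate, at least 5 of 8 markers, was chosen after seeing the data. For the values below that moved, the cause was not tested. Where cells were thinned or gated more strictly, fewer cells and genes entered the test, and for some kinds of neuron fewer libraries. Depth limits the neuron gate, and 2 libraries a genotype limit every genotype comparison.

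With cells thinned to 3000 UMIs, genes called were 223 for Isl1 and Pou4f1 positive neurons, with 6 of the 10 higher, against 3183 at full depth. They were 118 for Gata or Tal2 positive neurons, with 6 of the 10 lower, 298 for Pou4f1 positive central neurons, 84 for Lhx1 or Lhx5 positive central neurons, with 1 of the 10 higher and 0 lower, and 45 for other neurons, with 2 of the 10 lower. Log2 differences changed sign for Elavl4 in neurons against neuroblasts (0.29), for Dcx (-0.18), Elavl3 (-0.026) and Ina (-0.25) in Isl1 and Pou4f1 positive neurons, for Elavl3 in Gata or Tal2 positive neurons (0.025), and for Elavl3 (-0.0037) and Elavl4 (-0.097) in Pou4f1 positive central neurons. They also did for Elavl3 (0.28), Elavl4 (0.00021), Ina (0.30) and Nefm (0.016) in Lhx1 or Lhx5 positive central neurons, and for Nefl (0.12) and Nefm (0.035) in other neurons.

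With the gate of at least 5 of 8, genes called were 6800 for neurons against neuroblasts, 831 for Isl1 and Pou4f1 positive neurons with 6 of the 10 higher, and 120 for Gata or Tal2 positive neurons with 6 lower. They were 750 for Pou4f1 positive central, 168 for Lhx1 or Lhx5 positive central with 0 lower, and 176 for other neurons. Signs changed for Elavl4 in neurons against neuroblasts (0.76), for Dcx (-0.24) and Ina (-0.036) in Isl1 and Pou4f1 positive neurons and for Stmn3 in Lhx1 or Lhx5 positive central neurons (0.057). With the gate of at least 2 of 8, neurons against neuroblasts had 2 of the 10 called lower, with Elavl3 at -0.36. In Lhx1 or Lhx5 positive central neurons that gate gave 2269 genes called in either direction, of 10765 tested, and 9 of the 10 lower, with Dcx at -0.37. Without a filter on low counts the test of these central neurons called 1037 genes in either direction and 7 of the 10 lower. The share of all genes called lower in these central neurons is not given here for either setting.

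Between genotypes, signs changed in neurons at 3000 UMIs for Dcx (-0.076), Elavl3 (-0.28), Elavl4 (-0.27), Gap43 (-0.031), Nefl (-0.12), Nefm (-0.22) and Stmn2 (-0.0027). They did with the 2 of 8 gate for Elavl3 (-0.11), Nefl (-0.035) and Nefm (-0.15), and with the 5 of 8 gate for Elavl3 (-0.072), Nefl (-0.018) and Nefm (-0.21). In neuroblasts they did for Gap43 (-0.18) and Nefl (-0.84) at 3000 UMIs, for Elavl4 without the filter (0.0073), and for Elavl4 (0.0011), Gap43 (-0.11) and Nefm (0.066) with the 2 of 8 gate. In progenitors Dcx changed sign with DESeq2 size factors (0.0021), without the filter (0.0029) and in DESeq2 (0.013), and Nefl with the 2 of 8 gate (0.045). None of these members was called. Genes called without the filter were 9 in neurons, 6 in neuroblasts, 9 in progenitors and 3 over all kept cells, where DESeq2 called 3 and thinned cells 1.

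Replicate numbers are shared by the genotypes, but with 2 pairs and correlations of same-numbered deviations between -0.0293 and 0.183 they were not taken as pairing. With a replicate block, 5 genes were called in neurons, 12 in neuroblasts, 1 in progenitors and 5 over all kept cells, none of them among the 10, and the signs of Nefm in neurons (-0.062) and Dcx in progenitors (0.046) changed.

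Leaving out 1 library at a time moved the genes called between genotypes to 3 to 73 in neurons, 1 to 43 in neuroblasts, 0 to 145 in progenitors and 0 to 222 over all kept cells, with 0 to 1 of the 10 lower in neuroblasts and 0 to 4 over all kept cells. Genes called were 1531 to 1999 for Gata or Tal2 positive neurons, and 281 to 622 for Lhx1 or Lhx5 positive central neurons with 0 to 5 of the 10 lower. Genotype differences that changed sign in neurons were Dcx (-0.042 to 0.58), Elavl3 (-0.11 to 0.32), Gap43 (-0.043 to 0.63), Ina (-0.038 to 0.80), Nefl (-0.25 to 0.53) and Nefm (-0.76 to 0.59). In neuroblasts they were Dcx (-0.50 to 0.29), Elavl3 (-0.21 to 0.066), Elavl4 (-0.25 to 0.18), Gap43 (-0.70 to 0.59), Nefl (-0.65 to 0.85) and Nefm (-1.76 to 0.39), and in progenitors Dcx (-0.44 to 0.67), Nefl (-0.24 to 0.039), Nefm (-0.33 to 0.20) and Stmn2 (-0.15 to 0.55). Over all kept cells they were Dcx (-0.89 to 0.14), Gap43 (-0.70 to 0.015), Ina (-0.83 to 0.23), Nefl (-1.06 to 0.10), Nefm (-1.53 to 0.17), Stmn2 (-0.64 to 0.19), Stmn3 (-0.11 to 0.26) and Tubb3 (-0.15 to 0.40). Outside the genotype comparison, Elavl4 in neurons against neuroblasts (-0.14 to 0.061) and Dcx in Lhx1 or Lhx5 positive central neurons (-0.017 to 0.18) did so.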

Other observations

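Cells that no gate claimed still held some of the 10 genes. Nefm stood at 0.452 and 1.12 UMIs per 10000 in the ungated cells of Apcdd1+/- replicates 1 and 2, and at 2.67 and 4.87 in those of WT replicates 1 and 2. Gap43 stood at 0.825 and 1.26 in ungated Apcdd1+/- cells and 1.43 and 2.41 in ungated WT cells. In the cells set aside for markers of more than 1 lineage, which may hold doublets, Stmn2 averaged 4.73 ± 2.06 UMIs per 10000 (SD, n = 4), below its neuron level in every library.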
